A study of Arabidopsis thaliana with 6 samples.

Results

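The xyloglucan endotransglucosylase/hydrolase family of Arabidopsis thaliana, XTH1 to XTH33, was followed in root tips of the hsl2 mutant and of the Col-0 wild type. The members were taken by locus, and all 33 were among the 37336 genes of the count files. Each genotype had 3 libraries of total RNA from the outermost 0.5 mm of the primary root of seedlings grown for 7 days on upright, sucrose-free agar with a daily light period of 16 h and 8 h of darkness. The mutant group carried the hsl2 mutation, whose allele is not given in the sources used here, and received no other treatment. The wild type was of the Col-0 ecotype and was grown the same way. The study set these genotypes side by side to ask how the mutation affects the shedding of root cap cells. HSL2 is a receptor kinase of the HAESA family, known for floral organ abscission. Its own transcript was at 7.61, 9.76 and 9.81 CPM (counts scaled to the library size) in hsl2 replicates 1 to 3, against 6.98, 8.61 and 7.22 CPM in wild type replicates 1 to 3, so the transcript level does not check the genotype.

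XTH enzymes work on xyloglucan, the hemicellulose that coats and links cellulose microfibrils in the primary wall. Most cut a xyloglucan chain and join the cut end to another chain, which lets a wall extend and then hold its new shape; a few cut it with water. In roots, members of the family are known from the elongation zone, root hairs and the forming xylem, where cells enlarge or thicken their walls. The family tree is usually drawn with XTH1 to XTH11 in group 1, XTH12 to XTH26 in group 2 and XTH27 to XTH33 in group 3, and the hydrolases sit in group 3.

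The catalytic centre of these enzymes is a short stretch that holds a pair of glutamate residues with an aspartate between them. A pattern of glutamate, a hydrophobic residue, aspartate, any residue and glutamate was found in the RefSeq coding sequences (TAIR10.1) of 32 members; XTH11 had no match. The stretch of 9 codons around it was different at the DNA level in each of the 32 members. The stretches of XTH17 to XTH21 are shown because they cover the members with the smallest p-values between genotypes and XTH20, a close relative that was almost absent. The others belong to further members described with all their values. Capitals mark the 2 glutamate codons.

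XTH17: gatGAGatcgatttcGAGttcttggga

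XTH18: gatGAGattgatttcGAGttcttagga

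XTH19: gatGAGattgatttcGAGtttttgggg

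XTH20: gatGAAatagattttGAGttcttggga

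XTH21: gacGAGatagatttcGAGtttttgggg

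XTH16: gacGAGatagactttGAGtttcttggt

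XTH13: gatGAAatcgacttcGAGttcttgggt

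XTH8: gacGAGatagatttcGAAtttctaggg

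XTH4: gacGAGatagactttGAGttccttgga

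XTH30: gacGAGttagacataGAGtttctaggg

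The sequences bear on the counts, since reads from near copies can be split between genes. Over the whole coding sequence, XTH17 and XTH18 were 92.2% identical, XTH18 and XTH19 88.6%, XTH17 and XTH19 87.9%, and XTH12 and XTH13 89.7%. At a length of 50 bases, however, 27 members shared no stretch with any other transcript. XTH18 and XTH19 shared 19 such stretches, 1.57% of those in XTH18 and 1.63% of those in XTH19. XTH21 shared 7.15% of its stretches with the pseudogene AT2G12660, which had 0 counts in every library. XTH15 shared 28.8% with the overlapping neighbour AT4G14120, which had 44, 114 and 75 counts in hsl2 replicates 1 to 3, against 114, 77 and 81 counts in wild type replicates 1 to 3, so the counts of XTH15 are less certain than those of the other members.

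Library totals ran from 15051468 to 20468890 counts, and 3 counts in a library equalled 0.148 to 0.213 CPM. Some libraries stood apart from others of their genotype. The summed level of 5 green tissue markers was 72.1 CPM in hsl2 1 and between 5.41 and 13.1 CPM elsewhere. Wild type replicate 3 differed less from hsl2 2 and hsl2 3 than from its own group: chi-square divided by its degrees of freedom, over all tested genes, was 13.3 and 12.7 against those mutant libraries, and 17 and 21.5 against wild type replicates 1 and 2. By the same measure hsl2 1 stood furthest from all others. It was at 36.7 and 33.8 against hsl2 2 and hsl2 3, and at 42.0 to 49.8 against the wild type libraries. Results on the family are therefore given with and without hsl2 1 and wild type 3. The labels do not say whether the samples of a genotype were grown separately, so the p-values speak only of the spread among these 6 libraries, which may be technical.

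Part of the family was expressed in the root tip. Of the 33 members, 21 had enough counts to be tested, beside 17989 of all 37336 genes, which is a smaller share. Of the tested members, 17 passed the filter level of 0.629 CPM in every library. XTH1, XTH2 and XTH3 had 0 counts in all 6 libraries, which in each allows a level of up to the CPM given above for 3 counts. The other 9 untested members, XTH6, XTH7, XTH11, XTH20, XTH25, XTH26, XTH29, XTH31 and XTH32, had between 1 and 31 counts over all libraries, and the highest single level among them was 1.31 CPM. XTH6 (AT5G65730) is separated from HSL2 by 1 protein-coding gene, and had 0 counts in each hsl2 library, against 0, 2 and 0 counts in wild type replicates 1 to 3. XTH20, whose active site is shown above, had 3, 2 and 0 counts in hsl2 replicates 1 to 3, against 5, 2 and 3 counts in wild type replicates 1 to 3. XTH26, known from root hairs, had 0, 3 and 20 counts in hsl2 replicates 1 to 3, against 1, 0 and 0 counts in wild type replicates 1 to 3, so nearly all of its reads came from hsl2 3.

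Levels were compared between genes per length, as RPKM, the CPM divided by transcript length in kilobases. XTH4 was the most abundant by mean, at 150.4 ± 21.7 RPKM in hsl2 and 133 ± 35.8 RPKM in wild type (SD, n = 3 each). XTH8 followed with 131 ± 15.9 RPKM in hsl2 and 87.3 ± 15.6 RPKM in wild type, and XTH19 with 112 ± 17.1 RPKM in hsl2 and 65.9 ± 5.32 RPKM in wild type. These 3 genes made up between 49.6% and 52.3% of the family's summed RPKM in every library. XTH16, XTH18 and XTH5 came next with means over the 6 libraries of 52.7, 50.9 and 50.7 RPKM, then XTH17 at 35.8, XTH9 at 30.4, XTH27 at 23.6 and XTH15 at 18.8 RPKM. XTH21, XTH22, XTH30 and XTH28 lay between 14.0 and 8.76 RPKM. Neighbours in this order overlapped in their ranges over the libraries, apart from 1 step: XTH28, with 8.34 RPKM as its lowest library, stood clear of XTH24, with 5.65 RPKM as its highest. The last 7 tested members, XTH24, XTH14, XTH10, XTH12, XTH23, XTH33 and XTH13, had means from 2.27 down to 0.665 RPKM.

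**Figure D1:**
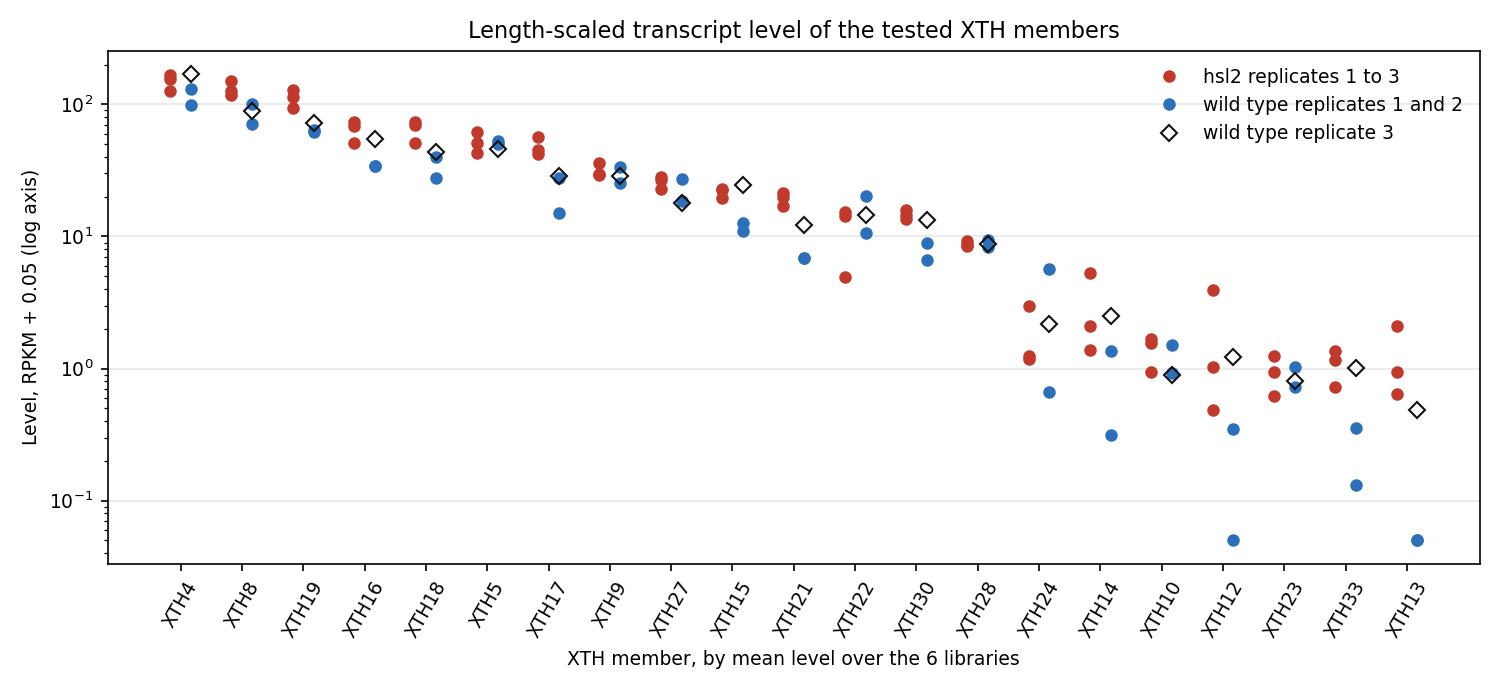
Length-scaled transcript level (RPKM + 0.05, log axis) of the 21 tested XTH members, ordered by mean over the 6 libraries; each point is 1 library, with hsl2 at the left of each member, wild type replicates 1 and 2 in blue and wild type replicate 3 as an open diamond. XTH4, XTH8 and XTH19 lead, and the step below XTH28 is the only place where neighbouring ranges do not overlap.

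Summed over the family, RPKM was 785.0, 836.2 and 681.9 in hsl2 replicates 1 to 3, against 505.5, 521.6 and 633.7 in wild type replicates 1 to 3. The mean was 767.7 ± 78.6 RPKM in hsl2 and 553.6 ± 69.8 RPKM in wild type (SD, n = 3 each). The lowest mutant library lay above the highest wild type library, which was replicate 3. In these bulk samples, fewer cells of a type and less RNA per cell cannot be told apart.

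Most tested members were higher in hsl2. The fold change was above 0 for 18 of the 21 (85.7%) and below 0 for XTH22, XTH24 and XTH28; over all 17989 tested genes it was above 0 for 51.6%. The median log2 fold change, hsl2 over wild type, was 0.59 for the family and 0.01 for all tested genes. No member passed edgeR's quasi-likelihood test at an adjusted p under 0.05 (Benjamini-Hochberg over all tested genes), and neither did any other gene, so 0% of all genes were called. Limma-voom also called 0% of all genes; 9 members and 2457 genes in all had an unadjusted p under 0.05 there. DESeq2 on the same counts called 4 members, XTH17, XTH18, XTH19 and XTH21, all higher in hsl2. That is 19% of the tested family, beside 0.917% of all tested genes called higher by DESeq2.

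Counts below the adjusted threshold were similarly one-sided. At an unadjusted edgeR p under 0.05, 8 members (38.1%) were higher in hsl2, beside 7.53% of all genes, and 0 members were lower, beside 6.01% of all genes. In 7 members (33.3%), XTH8, XTH13, XTH17, XTH18, XTH19, XTH21 and XTH30, every hsl2 library lay above every wild type library, beside 11.3% of all genes. In 0 members did every hsl2 library lie below, beside 9.44% of all genes. XTH13 entered these counts through hsl2 alone, since it passed the filter level in no wild type library. Among the 20 members past it in both genotypes, 17 were higher in hsl2, 7 (35%) were higher at an unadjusted edgeR p under 0.05 and 6 (30%) had every hsl2 library above, beside 7.43% and 11.2% of the genes past it in both genotypes.

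**Figure D2:**
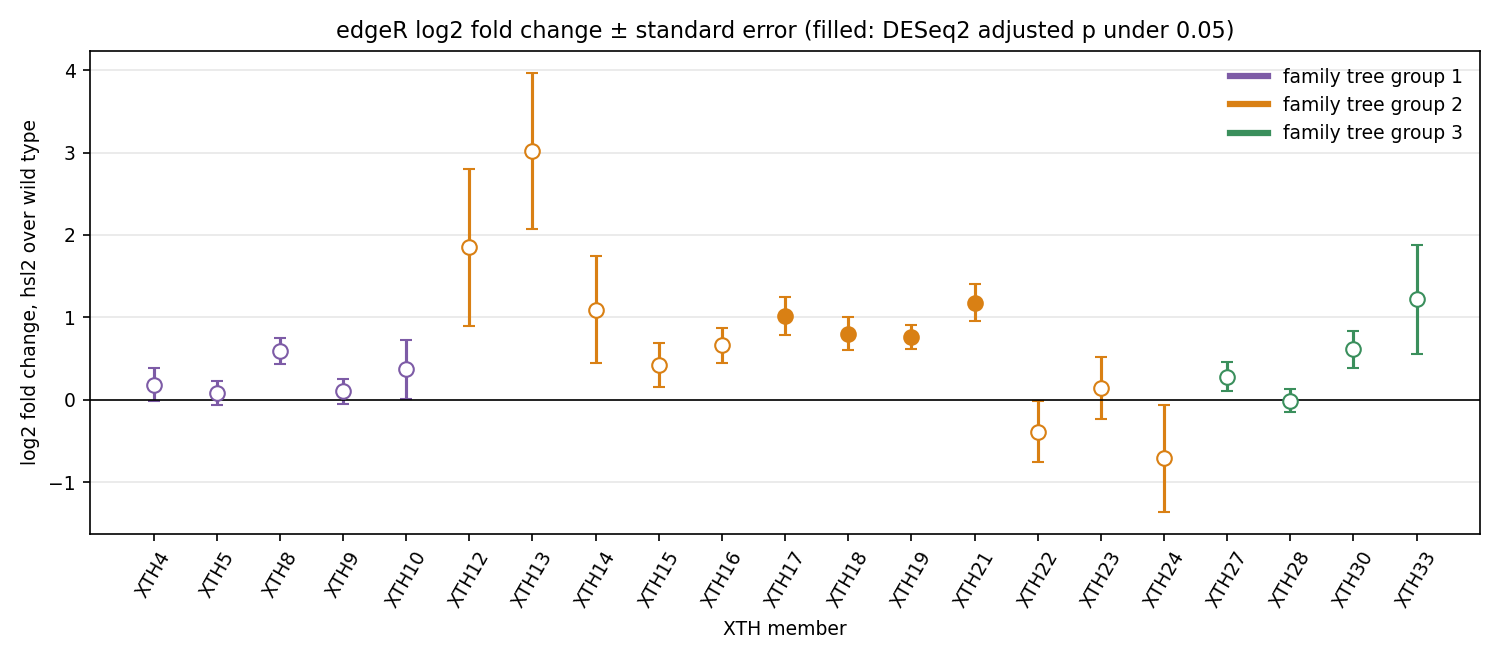
edgeR log2 fold change (hsl2 over wild type) of the 21 tested XTH members with its standard error, coloured by family tree group; filled points mark an adjusted p under 0.05 in DESeq2. The 4 filled points, XTH17, XTH18, XTH19 and XTH21, belong to group 2, and 18 of the 21 points lie above 0.

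Most of these members belonged to group 2, which had 12 of its 15 members tested, with 10 higher, 2 lower and a median log2 fold change of 0.78. Group 1 had 5 of 11 tested, all higher, with a median of 0.18. Group 3 had 4 of 7 tested, 3 higher and 1 lower, with a median of 0.45. The difference between tree groups was not tested.

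XTH17, XTH18 and XTH19 are close relatives expressed in roots, and each was higher in all hsl2 libraries than in any wild type library. XTH19 (AT4G30290), which is induced by auxin, had 153, 170.3 and 125 CPM in hsl2 replicates 1 to 3, against 83.0, 84.9 and 96.1 CPM in wild type replicates 1 to 3. The wild type libraries lay close together, below all mutant libraries. Its log2 fold change was 0.76 ± 0.15 (SE), with an adjusted p of 0.138 in edgeR and 0.0012 in DESeq2.

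XTH18 (AT4G30280), which sits next to XTH19 on chromosome 4, had 87.7, 92.5 and 64.6 CPM in hsl2 replicates 1 to 3, against 34.9, 50.4 and 55.2 CPM in wild type replicates 1 to 3. As for XTH17 and XTH19, hsl2 3 was the lowest mutant library and came nearest to the wild type. The log2 fold change was 0.80 ± 0.20, with an adjusted p of 0.204 in edgeR and 0.0193 in DESeq2. XTH17 (AT1G65310), on chromosome 1, had 55.3, 68.9 and 50.9 CPM in hsl2 replicates 1 to 3, against 18.2, 33.6 and 35.0 CPM in wild type replicates 1 to 3. Wild type 1 was low for XTH17 and the other 2 wild type libraries were alike. The log2 fold change was 1.02 ± 0.23, with an adjusted p of 0.179 in edgeR and 0.00592 in DESeq2; without wild type 1 it was 0.75 in edgeR, with an adjusted p of 0.58. On the same chromosome as XTH18 and adjacent to it, XTH24, a gene long known as MERI5, had a log2 fold change of -0.71 ± 0.65, and its libraries ranged from 1.37 to 3.56 CPM in hsl2 and from 0.738 to 6.84 CPM in wild type.

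XTH21 (AT2G18800), a root member that takes part in primary root growth, had the smallest p in the family. Its level was 20.4, 25.4 and 23.7 CPM in hsl2 replicates 1 to 3, against 8.11, 8.18 and 14.4 CPM in wild type replicates 1 to 3. Wild type 3 stood between the other wild type libraries and the mutant. The log2 fold change was 1.18 ± 0.23, with an adjusted p of 0.138 in edgeR and 0.00085 in DESeq2. Over the 14 alternatives run for it the adjusted p lay between 0.000693 and 0.58 and the fold change kept its direction.

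XTH16 (AT3G23730), a close relative of XTH15, had 61.9, 90.1 and 83.3 CPM in hsl2 replicates 1 to 3, against 41.5, 41.2 and 66.2 CPM in wild type replicates 1 to 3. The genotypes overlapped because wild type 3 lay above hsl2 1. The log2 fold change was 0.66 ± 0.21, with an adjusted p of 0.291 in edgeR. XTH15 itself, which responds to shade in shoots, had 23.7, 27.5 and 26.9 CPM in hsl2 replicates 1 to 3, against 13.3, 15.3 and 29.8 CPM in wild type replicates 1 to 3. In XTH15, wild type 3 was the highest of all 6 libraries.

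Of the rare members of group 2, XTH12, XTH13 and XTH14 had large fold changes on few reads. XTH23 and XTH24, also rare, had log2 fold changes of 0.14 ± 0.38 and -0.71 ± 0.65. XTH13 (AT5G57540) had 14, 13 and 35 counts in hsl2 replicates 1 to 3, against 0, 0 and 8 counts in wild type replicates 1 to 3. It was the 1 member that passed the filter level in all hsl2 libraries and in no wild type library, so it could enter the test only through the group where it was high. Its log2 fold change was 3.02 ± 0.95, with an adjusted p of 0.282 in edgeR. That value rests on wild type 3, the only wild type library with reads. Without it the wild type is at 0. The fitted log2 fold changes are then 7.48, and 7.68 with hsl2 1 left out too, but they depend on the prior count and are no bounds. Against a level of 3 counts per library in wild type 1 and 2, the hsl2 mean was 7.89-fold higher. That ratio leaves out wild type 3, so it does not bound the difference between genotypes. Wild type 3 was at 0.486 CPM, against 0.996, 0.657 and 2.29 CPM in hsl2 replicates 1 to 3. Its close relative XTH12 had 7, 22 and 68 counts in hsl2 replicates 1 to 3, against 7, 0 and 22 counts in wild type replicates 1 to 3, and XTH14, known from root hairs, had 22, 47 and 93 counts in hsl2 replicates 1 to 3, against 31, 5 and 47 counts in wild type replicates 1 to 3. The log2 fold change was 1.85 ± 0.95 for XTH12 and 1.09 ± 0.65 for XTH14, with an adjusted p of 0.415 and 0.474 in edgeR. In XTH12, XTH13 and XTH14 alike, hsl2 3 was the highest library of the mutant and wild type 3 the highest of the wild type.

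XTH22, the touch-induced gene TCH4, was among the 2 lower members of group 2, with 22.7, 24.2 and 7.72 CPM in hsl2 replicates 1 to 3, against 31.9, 16.8 and 22.9 CPM in wild type replicates 1 to 3. The libraries overlapped widely, and hsl2 3 stood below the rest. Its log2 fold change was -0.39 ± 0.37, with an adjusted p of 0.644 in edgeR. XTH23, the remaining tested member of the group, had a log2 fold change of 0.14 ± 0.38.

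Group 1 holds XTH4 and XTH8, the members with the highest mean levels. XTH8 (AT1G11545) had 154, 182 and 144 CPM in hsl2 replicates 1 to 3, against 85.9, 123 and 109 CPM in wild type replicates 1 to 3. The genotypes did not overlap. Its log2 fold change was 0.59 ± 0.16, with an adjusted p of 0.239 in edgeR and 0.0543 in DESeq2. XTH4 (AT2G06850), which is known from stems, where it acts in secondary xylem, had 260.0, 243 and 195 CPM in hsl2 replicates 1 to 3, against 202, 152 and 263 CPM in wild type replicates 1 to 3. Wild type 3 was the highest library for XTH4, and its log2 fold change was 0.18 ± 0.20, with an adjusted p of 0.695 in edgeR. The remaining tested members of group 1 were XTH5 at 0.08 ± 0.15, XTH9, which also acts in xylem, at 0.10 ± 0.15, and XTH10 at 0.37 ± 0.36 in log2 fold change.

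In group 3, XTH30 (AT1G32170) had 22.1, 20.4 and 18.9 CPM in hsl2 replicates 1 to 3, against 9.15, 12.4 and 18.7 CPM in wild type replicates 1 to 3. The mutant libraries lay close together, and wild type 3 lay just below the lowest of them. The log2 fold change was 0.61 ± 0.23, with an adjusted p of 0.332 in edgeR. XTH33, whose protein is known from the plasma membrane, had 19, 16 and 24 counts in hsl2 replicates 1 to 3, against 2, 6 and 19 counts in wild type replicates 1 to 3. Its log2 fold change was 1.22 ± 0.66. XTH27 was at 0.28 ± 0.18. XTH28, known from stamen filaments, was at nearly the same level in both genotypes, at 13.01 ± 0.696 CPM in hsl2 and 13.1 ± 0.725 CPM in wild type (SD, n = 3 each), with a log2 fold change of -0.01 ± 0.14.

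Wild type replicate 3 was set against the other libraries for each tested member, on the scale of log2(CPM + 0.5). It lay nearer to the hsl2 mean than to the mean of wild type replicates 1 and 2 in 10 of the 21 members (47.6%), and in 51.7% of all tested genes. These members were XTH4, XTH12, XTH13, XTH14, XTH15, XTH16, XTH21, XTH28, XTH30 and XTH33. By tree group they were 1 of 5 tested in group 1, 6 of 12 in group 2 and 3 of 4 in group 3. The share in the family was thus near that of all genes.

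Wild type 3 was above both other wild type libraries in 12 members (57.1%) and in 35.9% of all genes, and below both in 3 members (14.3%) and in 38.6% of all genes. The median of wild type 3 minus the mean of wild type 1 and 2 was 0.39 on the log2 scale for the family and -0.01 for all genes. The difference was 1.5 for XTH12, 1.39 for XTH14, 1.20 for XTH33 and 1.04 for XTH15. It was 0.79 for XTH21, where the mean of hsl2 was 1.44 above the mean of wild type 1 and 2. For XTH17, XTH18 and XTH19 it was 0.49, 0.39 and 0.19, while the hsl2 mean was 1.21, 0.94 and 0.82 above, so wild type 3 stayed on the wild type side of the midpoint for these. XTH8, with 0.09 against 0.63, did so too.

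**Figure D3:**
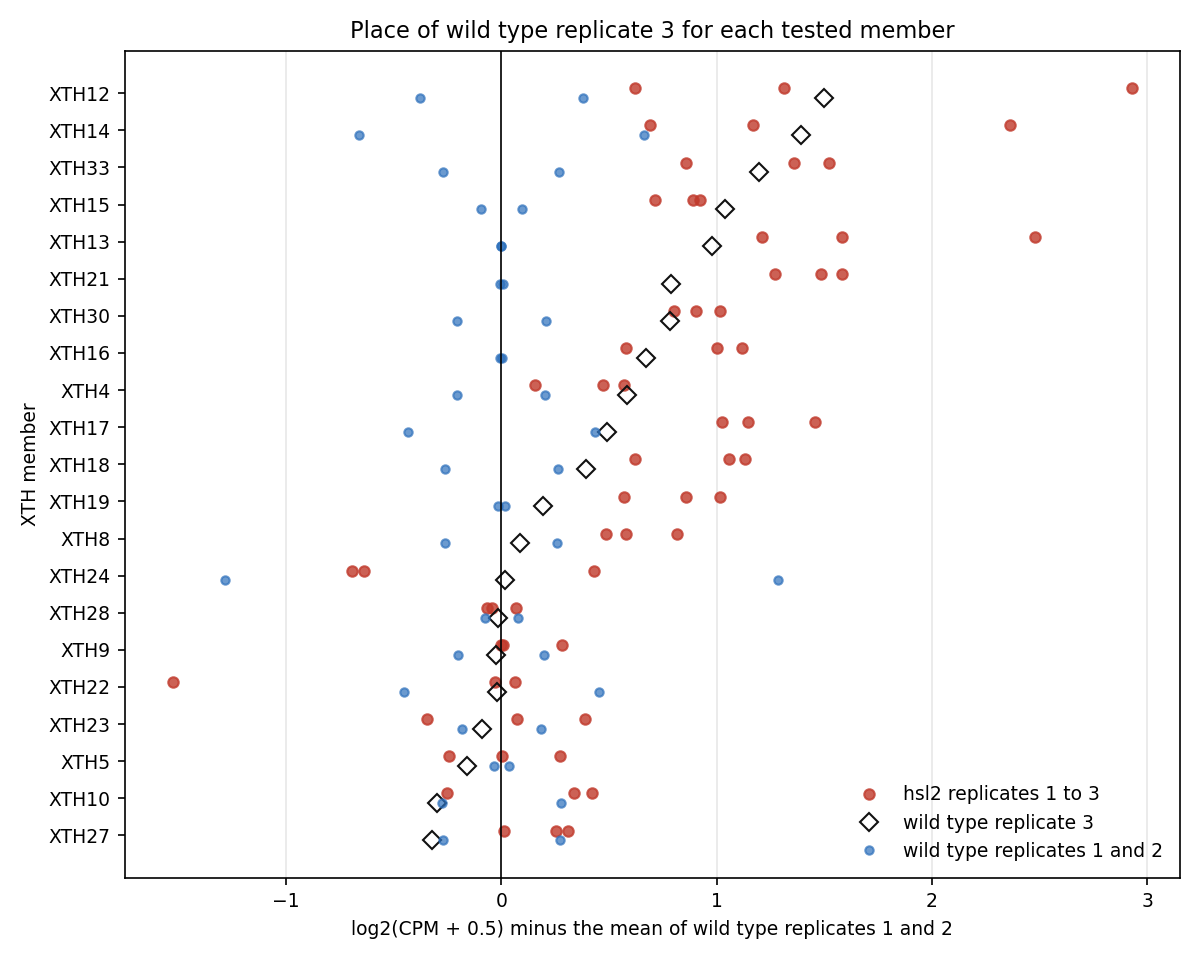
Level of each tested XTH member in each library as log2(CPM + 0.5) minus the mean of wild type replicates 1 and 2, which is the vertical line at 0; red points are hsl2 replicates 1 to 3, open diamonds wild type replicate 3, small blue points wild type replicates 1 and 2. Wild type 3 lies among the mutant libraries for XTH12, XTH14 and XTH33 and some other members, right of them for XTH15 and just left of them for XTH30. It is also left of all of them for XTH8, XTH9, XTH10, XTH13, XTH17, XTH18, XTH19, XTH21 and XTH27. For XTH13 and XTH21 it is still nearer to the hsl2 mean than to 0.

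Leaving out single libraries moved the calls. Without wild type 3, edgeR called 55 genes, and XTH21 was the 1 member among them, with a log2 fold change of 1.51 and an adjusted p of 0.0265; 0.231% of all genes were then called higher. The family median was 0.83 and 18 members were higher. In that fit the log2 fold change was 0.40 for XTH4, 0.87 for XTH15, 0.93 for XTH30 and 2.43 for XTH33, each over 1.5 times its value with all libraries. Wild type 3 was the highest wild type library for each of these and for XTH21, so leaving it out had to raise their fold changes. It was above both other wild type libraries in 12 members, which bears on the higher median in the same way. Without hsl2 1, no member was called in edgeR, the median was 0.56 and 16 members were higher, with XTH5 at -0.09 and XTH9 at -0.03. Leaving out both hsl2 1 and wild type 3 kept 2 libraries a genotype. These were its closest pair, at a chi-square per degree of freedom of 6.17 in hsl2 and 12.5 in wild type. Wild type 3 was also the wild type library nearest to each hsl2 library. That choice by itself tends to narrow the spread and widen the gap, so the calls are no separate evidence. In that fit, 9 members were called in edgeR: XTH12, XTH13, XTH15, XTH16, XTH17, XTH18, XTH19, XTH21 and XTH30. All 9 were higher in hsl2, beside 4.48% of all genes called higher in that fit. XTH12 and XTH13 passed the filter there through hsl2 alone; among the 18 members past it in both genotypes 7 were called, beside 4.28% of such genes. Over all tested members the median was 0.82 and 16 were higher. The fold change of XTH15 was 0.42 with all libraries and 0.93 in that fit, with an adjusted p of 0.00525 there. XTH4, XTH5, XTH8, XTH9 and the other tested members were not past the threshold in that fit; XTH8 had an adjusted p of 0.0503.

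With no filter on low counts, edgeR called 3 members, XTH17, XTH19 and XTH21, beside 0.203% of all genes called higher. With the replicate number as a block it called XTH21, beside 0.128% of all genes called higher, although the numbers did not pair the samples.

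Levels of tissue marker genes also differed between libraries, and root hair markers, like the family, were lowest in wild type 1 and 2. Of 8 root hair markers, 7 were tested and all 7 had fold changes above 0, with a median log2 fold change of 1.04. The median was 1.93 without wild type 3, 1.25 without hsl2 1 and 2.14 with both left out. At an unadjusted edgeR p under 0.05, 1 of the 7 was higher, beside 7.53% of all genes. Their summed level was 53.2 to 68.1 CPM in hsl2 and 30.9 to 59.5 CPM in wild type, where replicate 3 had 59.5. COBL9, a protein needed for polar root hair growth, was at 7.69, 13.8 and 11.1 CPM in hsl2 replicates 1 to 3, against 1.67, 4.12 and 7.77 CPM in wild type replicates 1 to 3. EXPA7, a root hair expansin, was at 3.49, 5.21 and 5.82 CPM in hsl2 replicates 1 to 3, against 0.443, 0.615 and 5.83 CPM in wild type replicates 1 to 3. Wild type 3 was just above the mutant range for EXPA7, and within it for XTH12, XTH14 and XTH33. It was within the mutant range for XTH5, XTH16, XTH22, XTH23, XTH24 and XTH28 as well.

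Root cap markers went the other way. All 6 were tested, 0 had a fold change above 0 and the median log2 fold change was -0.61. The median was -0.77 without wild type 3, -0.56 without hsl2 1 and -0.76 with both left out. At an unadjusted edgeR p under 0.05, 4 of the 6 were lower, beside 6.01% of all genes. The summed level was 104 to 141 CPM in hsl2 and 142 to 269 CPM in wild type, where replicate 3 had 142. RCPG, a polygalacturonase of the root cap, was at 15.2, 11.4 and 6.54 CPM in hsl2 replicates 1 to 3, against 39.6, 47.9 and 20.5 CPM in wild type replicates 1 to 3.

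Of 5 xylem markers, 4 had fold changes above 0, with a median of 0.86. The median was 1.26 without wild type 3, 1.16 without hsl2 1 and 1.48 with both left out. At an unadjusted edgeR p under 0.05, 1 xylem marker was higher, beside 7.53% of all genes. The summed level was 13.6 to 31.7 CPM in hsl2 and 11.9 to 19.8 CPM in wild type. The 5 markers of endodermis with a Casparian strip had a median of 0.10. It was 0.40 without wild type 3, -0.13 without hsl2 1 and 0.07 with both left out, and 0 of these markers had an unadjusted p under 0.05. They summed to 19.7 to 30.3 CPM in hsl2 and 16.8 to 26.4 CPM in wild type. The 6 division zone markers had a median of -0.13. It was -0.28 without wild type 3, -0.13 without hsl2 1 and -0.17 with both left out. At an unadjusted edgeR p under 0.05, 1 of the 6 was lower, beside 6.01% of all genes. The 6 summed to 257 to 290 CPM in hsl2 and 263 to 352 CPM in wild type. Of the 5 green tissue markers, 3 were tested, with a median of 2.11. It was 2.51 without wild type 3, 0.83 without hsl2 1 and 1.26 with both left out. All 3 were higher at an unadjusted edgeR p under 0.05. The 5 green tissue markers summed to 12.9 to 72.1 CPM in hsl2 and 5.41 to 12.1 CPM in wild type. Of all these markers, only LHCB2.1 was at 0 in a library, wild type 2. Per library, the mean of the 21 XTH members relative to all libraries was 0.21, 0.26 and 0.30 on the log2 scale in hsl2 replicates 1 to 3, against -0.36, -0.45 and 0.04 in wild type replicates 1 to 3. For the root hair markers it was 0.06, 0.48 and 0.73 in hsl2 and -1, -0.85 and 0.58 in wild type, and for the root cap markers -0.47, -0.19 and -0.40 in hsl2 and 0.47, 0.69 and -0.10 in wild type, in the same order of replicates. In all 3 lists, wild type 3 stood on the mutant side of the other wild type libraries. The part of these tissues in the XTH result was not tested.

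**Figure D4:**
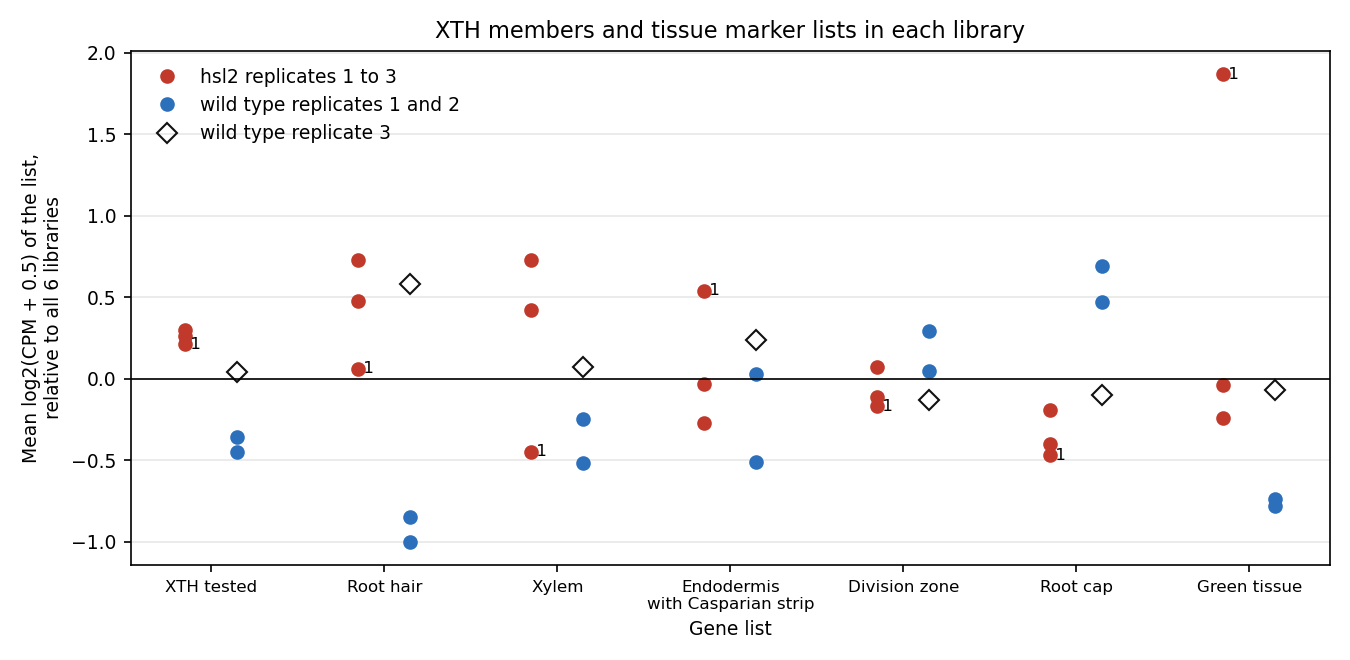
Mean log2(CPM + 0.5) of the 21 tested XTH members and of 6 marker lists in each library, relative to the mean of all 6 libraries; red points are hsl2 (hsl2 1 is marked 1), blue points wild type replicates 1 and 2, and open diamonds wild type replicate 3. Wild type 3 lies within the range of the mutant libraries for every marker list but root cap. For root cap and the XTH members it lies between the mutant libraries and the other wild type libraries. For green tissue hsl2 1 stands apart at 1.87.

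The genes that build and trim xyloglucan were split in direction. All 20 genes of the list were tested: 15 that synthesize or decorate the polymer (the CSLC glucan synthases, the XXT xylosyltransferases, the galactosyltransferases MUR3 and XLT2, the fucosyltransferase FUT1, the galacturonosyltransferase XUT1 and the acetyltransferase AXY4) and 5 that trim its side chains and fragments. Their median log2 fold change was 0.02, with 12 higher and 8 lower in hsl2. The lower ones were CSLC5, CSLC6, CSLC8 and XXT4 of the synthesis genes and XYL1, BGAL10, AXY8 and BGLC1 of the trimming genes. Among the trimming genes only BGLC3, at 0.02, was above 0. In edgeR, DESeq2 and limma-voom 0 passed the adjusted threshold, and in edgeR 3 (15%) were higher and 1 was lower at an unadjusted p under 0.05, beside the 7.53% and 6.01% of all genes. In 6 (30%), all of them synthesis genes, every hsl2 library lay above every wild type library, beside 11.3% of all genes. In 0 did every hsl2 library lie below, beside 9.44%. The difference between synthesis and trimming genes was not tested.

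Of these 4, XUT1, which adds galacturonic acid to the xyloglucan of root hairs, had 3.77, 4.398 and 4.78 CPM in hsl2 replicates 1 to 3, against 0.393, 0.677 and 3.58 CPM in wild type replicates 1 to 3. As with EXPA7, wild type 3 stood close to the mutant. The log2 fold change was 1.5 ± 0.61, with an adjusted p of 0.345 in edgeR. Wild type 3 was the highest wild type library for XUT1, so leaving it out had to raise the fold change. It was then 3.02, with an adjusted p of 0.0265 in edgeR. CSLC12 had 2.56, 5.51 and 4.32 CPM in hsl2 replicates 1 to 3, against 1.92, 1.85 and 3.16 CPM in wild type replicates 1 to 3, with a log2 fold change of 0.85 ± 0.34. AXY4, which acetylates xyloglucan, had 18.8, 25.6 and 23.4 CPM in hsl2 replicates 1 to 3, against 9.49, 17.5 and 14.8 CPM in wild type replicates 1 to 3, with a log2 fold change of 0.70 ± 0.22 and no overlap. XYL1, the α-xylosidase that trims xyloglucan fragments, was lower in hsl2, at 318, 352 and 432 CPM in hsl2 replicates 1 to 3, against 474, 496 and 429.9 CPM in wild type replicates 1 to 3, with a log2 fold change of -0.34 ± 0.15. Wild type 3 was the lowest wild type library for XYL1 and fell just below hsl2 3. It lay nearer to the hsl2 mean in 11 of the 20 genes of the list, above both other wild type libraries in 4 and below both in 9.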

How the data were processed

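Transcripts were measured by RNA sequencing in 6 root tip libraries, 3 of hsl2 and 3 of wild type, grouped by sample title. Per the labels' protocols, RNA was extracted with Trizol and a column kit and made into stranded TruSeq libraries. Per the submitters' processing notes, Trimmomatic 0.33, STAR 2.5.1b and featureCounts were used. The values are counts per gene as deposited by the authors, neither normalized nor pooled; entries naming no gene numbered 0. Which genome build, annotation and strand setting were used for counting is not given in the sources used here, so reads of overlapping, antisense or near-identical genes could be split in ways not checked, and no coordinates are printed.

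The main test was edgeR 4.0.16 (R 4.3.3): filterByExpr, TMM, and the quasi-likelihood test of genotype, the single factor (4 residual degrees of freedom) on 17989 genes, with Benjamini-Hochberg adjustment over all of them and a threshold of 0.05. Standard errors come from the log2 fold change and its F statistic. CPM uses TMM-scaled library sizes; RPKM divides it by the transcript length of the RefSeq TAIR10.1 annotation. Alternatives were DESeq2 1.42.0, limma-voom (limma 3.58.1), RLE and upper-quartile scaling, other filters, left-out libraries and a replicate block. A count over genes past the filter in both genotypes was added after the data were seen. Samples with the same replicate number deviated together with r of 0.154, 0.082 and 0.00615, so the numbers were not taken to pair samples. No 2 libraries agreed within sampling noise (chi-square per degree of freedom of 6.17 or more). Totals and the level equal to 3 counts are given with the results; they cover counting error only.

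The members, the marker and pathway lists, the left-out libraries and the tests were chosen with earlier results of these data known. Members named with all their values had an unadjusted edgeR p under 0.05, an adjusted p under the threshold in any of the 3 tools, or one of the 5 highest RPKM levels; XTH6 was added as a neighbour of HSL2. XTH12, XTH14, XTH15, XTH20, XTH22, XTH26 and XTH33, the pathway genes with an unadjusted p under 0.05, and the markers COBL9, EXPA7 and RCPG were given per library after their values were seen.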

Additional observations from a re-analysis of the deposited data

How the results depend on the processing

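With all libraries, edgeR called 0 genes at an adjusted p under 0.05, 0 XTH members and 0 xyloglucan pathway genes. Without a filter on low counts it called 110 genes and 3 members, and the family median log2 fold change was 0.39, since rare genes then enter. With the replicate block it called 52 genes and 1 member. The block rests on a shared number only: correlations between same-numbered samples were 0.154, 0.082 and 0.00615. DESeq2 called 292 genes and 4 members. With hsl2 1 and wild type 3 both left out, edgeR called 1311 genes, 9 members and 2 pathway genes (CSLC12 and XUT1), and the median was 0.82. All these members and both pathway genes, of 20 tested, were higher in hsl2, beside 4.48% of all genes called higher in that fit. Wild type 3 was the highest wild type library for CSLC12 and XUT1. The libraries kept in that fit were the closest pair of each genotype. Leaving out 1 library at a time gave 0 to 55 genes, 0 to 1 members and 0 to 1 pathway genes, with a median from 0.38 to 0.83. The upper ends of these ranges all came without wild type 3; without hsl2 3 the median was 0.40, and without wild type 1 it was 0.38. Beyond what the filter and the number and choice of libraries entail, the cause was not tested. RLE and upper-quartile scaling and limma-voom left the called counts at 0. The number of higher members, of members without overlap, and of members in which wild type 3 lay nearer to hsl2 stayed within 1.5 times under the alternatives run for each. Leaving out genes that pass the filter in 1 genotype only, added after seeing the data, gave 17 higher members and a median of 0.51. The fold changes of the 9 members named by rule kept their direction in 124 of 125 results, and XTH4 without wild type 2 was at 0. Most of these members were named for a small p in these same libraries. Every result refits those libraries, so a kept direction is no independent evidence. Of the results, 16 passed the threshold, and the fit with hsl2 1 and wild type 3 both left out gave more of them than any other. Depth limits the rare members: at 3 counts a library resolves no level below 0.148 to 0.213 CPM.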
